A study of Mus musculus with 26 samples.

Results

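RNA levels of 36 genes of glycolysis, the hypoxia response and the glucose response were examined in mouse ESCs and in NPCs derived from them, out of 55291 genes counted. The genes were chosen by name, as listed rows of both tables of counts, after it was seen that Txnip and Aldoc were higher in NPCs of the Grb10 pA line. They are 2 hexokinases (Hk1, Hk2), 7 enzymes of the upper steps of glycolysis (Gpi1, Pfkl, Pfkm, Pfkp, Aldoa, Aldoc, Tpi1), 7 of the lower steps (Gapdh, Pgk1, Pgam1, Eno1, Eno2, Eno3, Pkm) and 2 lactate dehydrogenases (Ldha, Ldhb). The rest are 4 transporters (Slc2a1, Slc2a3, Slc16a1, Slc16a3), 4 kinases that set glycolytic flux (Pdk1, Pdk3, Pfkfb3, Pfkfb4), 8 targets of the hypoxia response (Vegfa, Bnip3, Ero1l, Ankrd37, P4ha1, Egln3, Car9, Ddit4) and 2 glucose-responsive arrestin-family genes (Txnip, Arrdc4). All 36 passed the filter on low counts in both tables.

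The study asked how CTCF, the zinc finger protein that anchors chromatin loops, depends on RNA, and total RNA was sequenced after removal of ribosomal RNA from 26 libraries in 10 groups. All lines derive from E14 mouse ESCs, grown in medium with leukemia inhibitory factor and the inhibitors CHIR99021 and PD0325901. NPCs were taken after 2 days in N2B27 medium on laminin. In the rescue lines, endogenous CTCF carries an mAID-eGFP degron, OsTIR1(F74G) is expressed from Rosa26, Hb9 carries mCherry, and a doxycycline-inducible Flag-Halo-CTCF transgene sits at Tigre. This transgene is wild-type in the WT rescue line and lacks zinc finger 1 in the ΔZF1 rescue line, and each line is 1 clone. Both received, over 24 h, 5-Ph-IAA at 1 µM, which triggers degradation of the endogenous protein, and doxycycline at 1 µg/ml, and each was sequenced in 2 libraries as ESCs and 2 as NPCs. The second experiment compared untreated E14 WT cells with Podxl pA and Grb10 pA cells, in 3 libraries each as ESCs and as NPCs. In the pA lines, a cassette of a self-cleaving peptide and eGFP that ends in an SV40 polyadenylation signal was knocked in on both alleles after the first coding exon of Podxl or Grb10, so that the RNA is cut short. The rescue lines have no untreated group here. A change in a pA line, or between the rescue lines, cannot be told apart from a difference between clones.

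Glycolysis splits glucose into pyruvate, and most of its steps have several isozymes encoded by separate genes. Cells that turn pyruvate into lactate rely on lactate dehydrogenase and export lactate through monocarboxylate transporters, whereas the pyruvate dehydrogenase kinases hold pyruvate back from the mitochondria. When oxygen falls, HIF transcription factors bind the core ACGTG near many glycolytic genes and raise them together with Bnip3, P4ha1, Egln3 and other targets. When glucose metabolites rise, the MondoA and ChREBP factors with their partner Mlx bind pairs of E-box-like sites and raise Txnip and Arrdc4, whose products restrain glucose uptake.

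Promoter sequence is shown because both kinds of site are known from genes of this set. RefSeq promoter windows of 300 bases (250 before and 50 after a start, GRCm38.p6) were found for 35 of the 36 genes. Matches of CACGNG, 5 bases of any kind and CACGNG again, or of ACGTG, on either strand, are in capitals. CACGTG holds ACGTG on both strands.

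Txnip, chr3:96557707-96558006, plus strand: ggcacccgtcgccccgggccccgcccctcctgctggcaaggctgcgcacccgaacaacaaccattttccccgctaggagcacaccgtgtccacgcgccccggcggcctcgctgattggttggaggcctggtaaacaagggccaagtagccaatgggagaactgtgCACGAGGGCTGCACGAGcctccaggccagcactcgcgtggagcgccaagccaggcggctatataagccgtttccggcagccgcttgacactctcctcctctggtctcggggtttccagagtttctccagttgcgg
Arrdc4, chr7:68749189-68749488, minus strand: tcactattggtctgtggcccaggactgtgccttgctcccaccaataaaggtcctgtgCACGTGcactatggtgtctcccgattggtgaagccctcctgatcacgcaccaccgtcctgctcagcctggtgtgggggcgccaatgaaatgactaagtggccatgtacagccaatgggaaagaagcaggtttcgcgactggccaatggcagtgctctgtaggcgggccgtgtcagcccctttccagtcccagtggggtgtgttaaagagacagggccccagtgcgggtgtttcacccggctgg

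The Txnip window holds the paired motif, which starts 85 bases before the start of the gene. It is the 1 gene of the 35 with this pair, which 16 of 32851 windows of the same length hold (0.049%). Arrdc4 holds a CACGTG instead, as do 7.15% of all windows. Stretches of 60 bases follow from 3 further genes, picked among those that were high in the Grb10 pA line and hold ACGTG, the hypoxia core. In Bnip3 it lies in a CACGTG, as in Arrdc4.

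Bnip3, chr7:138909582-138909641, minus strand: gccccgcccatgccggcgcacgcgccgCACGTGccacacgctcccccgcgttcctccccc
P4ha1, chr10:59323252-59323311, plus strand: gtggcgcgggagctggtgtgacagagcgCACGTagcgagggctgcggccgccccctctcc
Aldoc, chr11:78323063-78323122, plus strand: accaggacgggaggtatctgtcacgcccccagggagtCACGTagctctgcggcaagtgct

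ACGTG was present in a window of 24 of the 35 genes (68.6%), against 19.6% of all windows and 29.8% of the 10143 genes with a window that were tested in the E14 and pA lines. These are matches of letters, not binding sites, and no binding was measured at them here. A gene with several start sites had more than 1 chance of a match. The other 11, with no ACGTG, were Gpi1, Pfkl, Pfkp, Tpi1, Eno1, Eno2, Eno3, Ldhb, Pdk1, Pfkfb4 and Txnip. Of these, Gpi1, Pfkl, Eno2, Ldhb and Txnip were higher in ESCs of Grb10 pA. A link between the motif and the changes was not tested.

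Libraries of the rescue lines held 6425179 to 28730435 counts on genes (median 15019046.5) and those of the E14 and pA lines 1907505 to 8845087 (median 4472121), so low genes are measured more coarsely in the second set. Levels are given as CPM, counts scaled to a common library size, after TMM normalisation, within 1 set of lines only, and log2 fold changes as value ± SE. Genes were taken as changed at a Benjamini-Hochberg adjusted p of at most 0.05 over all genes tested, provided that the log2 fold change was 0.5 or more in size. The targeted RNAs were lower in their own lines: Grb10 was at 769 to 814 CPM in NPCs of E14 WT and at 52.2 to 59.4 in those of Grb10 pA, and Podxl at 232 to 259 and, in Podxl pA, at 20.8 to 24.3. In ESCs, Grb10 was at 118 to 127 CPM in E14 WT and at 30.4 to 35.3 in Grb10 pA, and Podxl at 26.4 to 34.9 and, in Podxl pA, at 3.01 to 12.9. Ctcf itself, counted with its transgene, was at 562 to 577 CPM in ESCs of the WT rescue line and 831 to 860 in those of ΔZF1 rescue, and at 449 to 474 and 785 to 798 in NPCs. Ctcf was also lower in Grb10 pA, at 134 to 157 CPM against 229 to 233 in ESCs and at 155 to 161 against 211 to 218 in NPCs. These are RNA levels. By Western blot, the paper saw CTCF protein unchanged in the pA lines and Flag-Halo-CTCF at similar levels in WT and ΔZF1 rescue. Whole chromosomes stood apart in these clones. In ΔZF1 rescue, the median over chromosome 11 was -0.46 (log2, ESCs) and -0.57 (NPCs), and in Grb10 pA that over chromosome 8 was -0.49 and -0.48. Of the 36 genes, Aldoc, Eno3 and Slc16a3 lie on chromosome 11 and Ankrd37 on chromosome 8.

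Marker genes placed limits on the label NPC, with ranges given over both sets of lines, which were normalised apart. The summed level of 12 pluripotency markers fell from between 4776 and 6984 CPM in ESC libraries to between 604 and 1096 in NPC libraries. The 10 neural progenitor markers summed to 279 to 381 CPM in ESCs and to 149 to 270 in NPCs. Among them, Sox1, an early neural marker, was at 3.88 to 12.1 CPM in ESCs and at 16.8 to 83.8 in NPCs. By flow cytometry, the paper found Sox1 protein in most cells of the untreated rescue lines after differentiation. It also reported that both pA lines gave rise to NPCs with Sox1. Pax6 stayed under 10 CPM in every library, Fabp7 and Hes5 were at 0 to 2 counts in all NPC libraries, and Sox2 was lower in NPCs than in ESCs of every line. Markers of extraembryonic endoderm (16 genes) summed to 201 to 525 CPM in ESCs and to 1451 to 7922 in NPCs, so NPC libraries also held RNA of these markers. In bulk RNA, fewer cells of a type and less RNA per cell cannot be told apart.

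Txnip, on chromosome 3 (96557957 to 96561883), encodes a protein that binds thioredoxin and promotes the removal of glucose transporters from the cell surface. It was at 291, 286 and 282 CPM in the 3 NPC libraries of E14 WT and at 279, 284 and 287 in those of Podxl pA. In NPCs of Grb10 pA, it was at 1300.1, 1366 and 1219 CPM. Aldoc, the aldolase isozyme typical of brain, was at 12.6, 4.74 and 10.1 CPM in NPCs of E14 WT, at 11.3, 10.2 and 10.2 in Podxl pA and at 37.6, 36.6 and 27.7 in Grb10 pA. For both genes every Grb10 pA library was above every other NPC library. The log2 fold changes over E14 WT were 2.18 for Txnip and 2.04 for Aldoc. These values led to the choice of the genes, so they are a description and carry no test.

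The other genes in NPCs of Grb10 pA are described in the same way. Arrdc4, the closest relative of Txnip in this set, was at 55.0, 53.5 and 53.9 CPM in E14 WT and 127, 142 and 119 in Grb10 pA. P4ha1, a subunit of the enzyme that hydroxylates collagen prolines, went from 117, 96.1 and 128 CPM to 311, 264 and 302, and Bnip3, a mitophagy receptor, from 77.7, 58.4 and 78.5 to 199.9, 167 and 153. Aldoa, the main aldolase, went from 1736, 1521 and 1505 CPM to 3533, 3639.7 and 3276. In each of these genes the libraries of the 2 groups did not overlap. The log2 fold changes were 1.25 for Arrdc4, 1.38 for P4ha1, 1.31 for Bnip3 and 1.13 for Aldoa. Of the 36 genes, 24 lay past both cutoffs upwards and 0 downwards, where 7.90% of all 13268 genes tested lay past them upwards and 8.64% downwards. The median log2 fold change was 0.57 for the 36 genes and 0.01 for all genes tested. Since this comparison led to the choice, the adjusted p within these cutoffs is no test of the genes. Nothing is read from these shares or from the roles of the upward genes, which are listed as a description. The upward genes included both hexokinases, 6 of 7 genes of upper glycolysis, 3 of 7 of lower glycolysis, both lactate dehydrogenases, 3 of 4 transporters, 1 of 4 flux kinases, 5 of 8 hypoxia targets and both glucose-responsive genes. At the other end, Eno3, the muscle enolase, had a log2 fold change of -0.29, and Slc16a1, Pdk1 and Vegfa lay between -0.03 and 0.05. Of 15 further hypoxia targets, 5 lay past the cutoffs upwards and 0 downwards, among them Plod2 (0.50) and Ndrg1 (1.06).

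**Figure D1:**
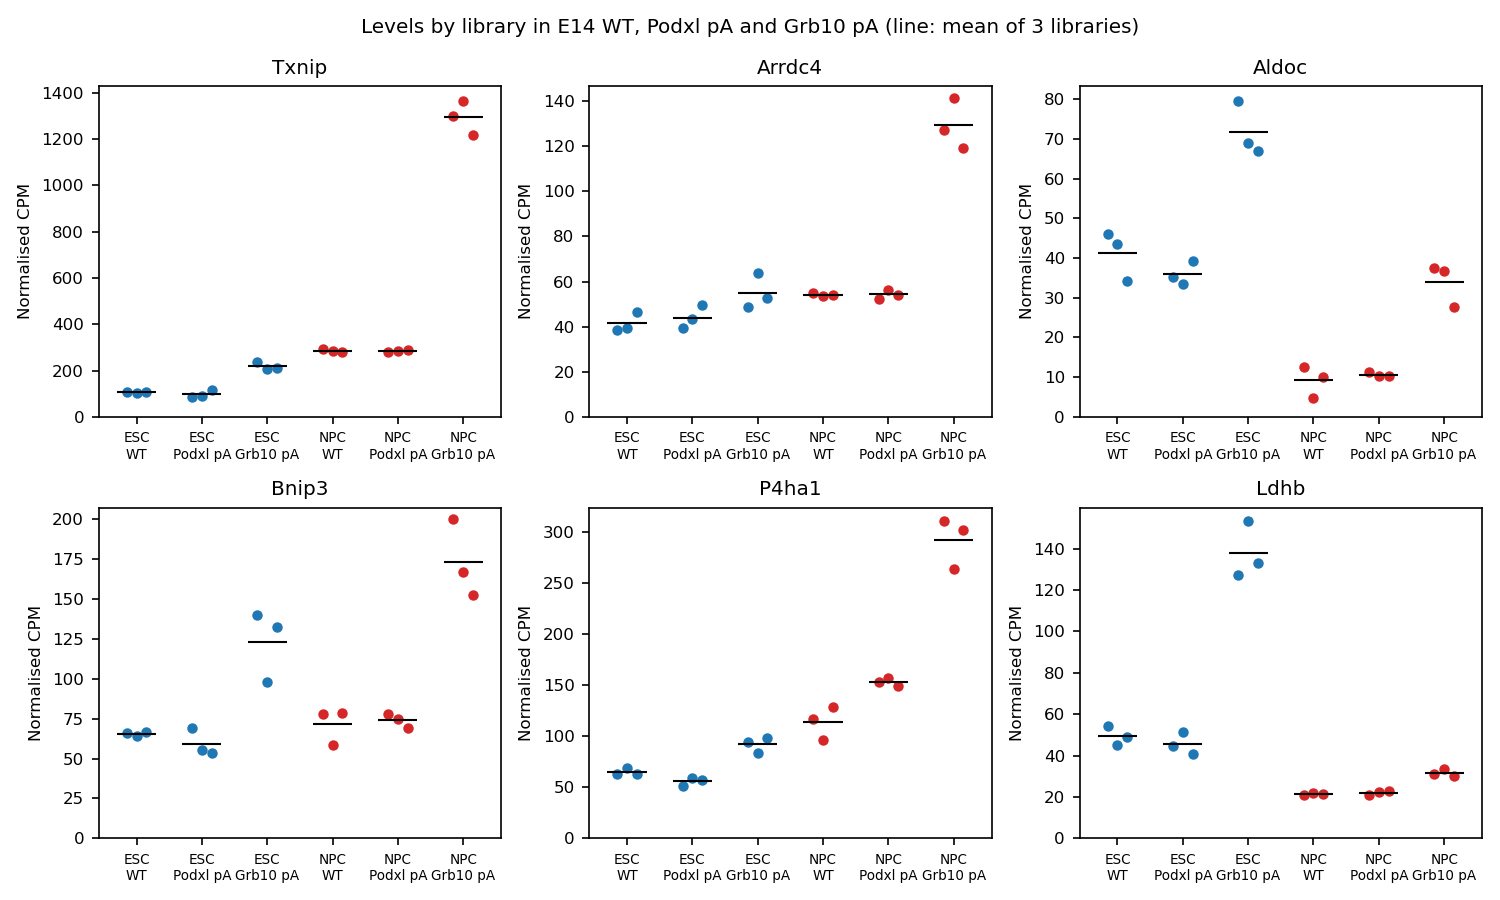
Normalised CPM (vertical axes, from 0) of 6 genes in each library of E14 WT, Podxl pA and Grb10 pA, with ESCs in blue, NPCs in red and the mean of 3 libraries as a line. Txnip was at 282 to 291 CPM in NPCs of E14 WT and at 1219 to 1366 in Grb10 pA, and Ldhb was highest in ESCs of Grb10 pA.

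The values of Txnip and Aldoc that led to the choice came from NPCs, and the ESC libraries of Grb10 pA and E14 WT were tested. The set was nevertheless drawn up with earlier results of these libraries known, so this count is not independent of the choice. Of the 36 genes, 15 were higher in Grb10 pA and 0 lower, whereas 4.51% of all 13268 genes tested were higher and 4.58% lower. Their median log2 fold change was 0.42, against 0.01 for all genes tested. Ldhb, the lactate dehydrogenase that favours conversion of lactate to pyruvate, had the largest rise, from 54.5, 44.9 and 48.9 CPM in the 3 E14 WT libraries to 127, 153 and 133 in Grb10 pA (log2 fold change 1.48 ± 0.10, adjusted p = 1.38e-10). Txnip was at 108, 104 and 109 CPM in E14 WT and 237, 206 and 212 in Grb10 pA (log2 fold change 1.03 ± 0.09, adjusted p = 9.54e-09). Its ESC values were close together in each group and did not overlap. Bnip3 rose from 66.1, 64.0 and 66.8 CPM to 139.8, 97.7 and 132 (log2 fold change 0.92 ± 0.13, adjusted p = 1.37e-05), with 1 Grb10 pA library below the other 2 and all above E14 WT. Aldoc rose from 46.0, 43.5 and 34.2 CPM to 79.6, 69.0 and 67.0 (log2 fold change 0.78 ± 0.16, adjusted p = 0.000904). Arrdc4 was at 38.6, 39.2 and 46.6 CPM and 48.7, 63.9 and 52.8, and with log2 fold change 0.42 ± 0.11, adjusted p = 0.0131 it was under the cutoff on size.

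By role, both hexokinases rose in ESCs of Grb10 pA (log2 fold changes 0.65 for Hk1 and 0.63 for Hk2). In upper glycolysis 4 of 7 rose, namely Gpi1, Pfkl, Pfkm and Aldoc, and the other 3 had log2 fold changes between 0.38 and 0.43. Of the lower steps, Pgk1 (0.59), which catalyses an ATP-forming step, and the neuronal enolase Eno2 (0.95) rose, and 5 of 7 did not pass. Slc2a3, the high-affinity glucose transporter GLUT3, rose from 2241, 2217 and 2018 CPM to 3714, 3534 and 3835 (log2 fold change 0.77 ± 0.07, adjusted p = 3.97e-08), and it was the 1 transporter of 4 past the cutoffs. None of the 4 flux kinases passed, with log2 fold changes from -0.12 to 0.21. Of the 8 hypoxia targets, 4 rose: Bnip3, Ddit4 (0.92), which inhibits mTORC1, the HIF prolyl hydroxylase Egln3 (0.71) and P4ha1 (0.51). Gpi1 (0.51) and P4ha1 lay just inside the cutoff on size and Pkm (0.47) and Pfkp (0.43) just outside it. Without the second ESC library of Grb10 pA, the calls on Hk2, Gpi1, Pfkl, Pfkm and Eno2 were lost and 10 remained. Those on Gpi1, Eno2 and P4ha1 were also lost in some other fits, among them that of only the groups compared.

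**Figure D2:**
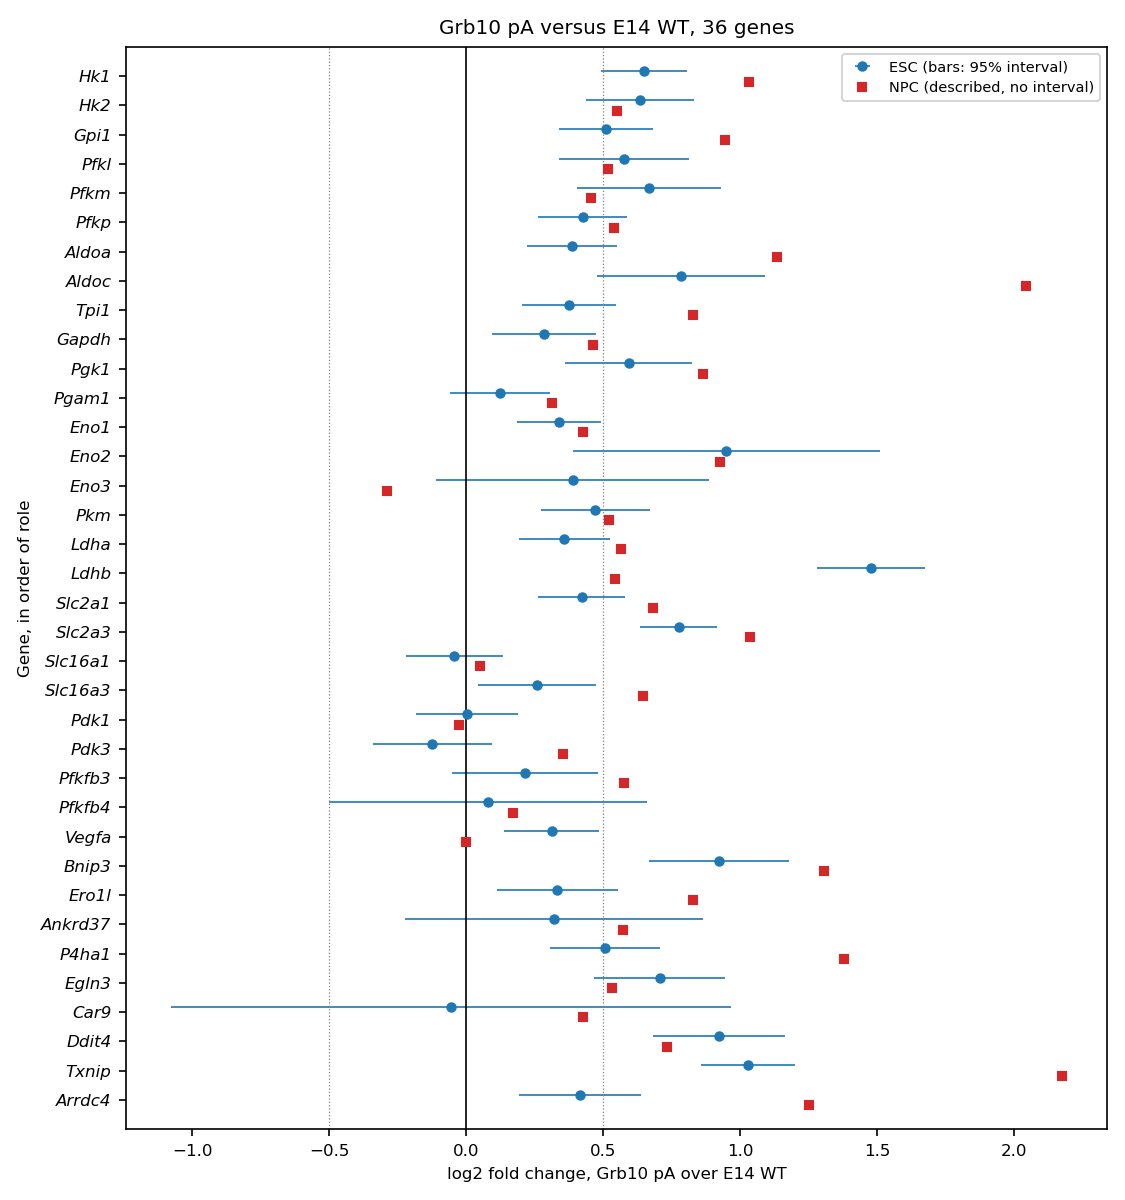
Log2 fold changes (horizontal axis) of the 36 genes, in order of role, in Grb10 pA over E14 WT, with ESCs as blue circles with 95% intervals and NPCs as red squares with no interval. Dotted lines mark 0.5 in either direction, and most genes lie to the right of 0 in both cell types, with Txnip and Aldoc farthest right in NPCs.

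Other genes of the same pathways were listed by role. In ESCs of Grb10 pA, of 15 further hypoxia targets, P4ha2 (0.60) and Fam162a (0.55) rose and 0 fell. Pdk4, a pyruvate dehydrogenase kinase, rose (log2 fold change 0.95 ± 0.18, adjusted p = 0.000433), as 1 of 7 further flux regulators, and the glucose transporter gene Slc2a8 (0.69) rose as 1 of 5 further transporters tested. Pcx, which carboxylates pyruvate, was the 1 of 8 genes of pyruvate entry that rose (0.53), and 0 of 7 pentose phosphate genes passed. Of the 9 HIF subunits and regulators, 0 rose and Arnt2, a partner of HIF subunits, fell (log2 fold change -0.62 ± 0.19, adjusted p = 0.0281). Of 9 genes of the Mondo, Mlx and Myc network, 0 rose and Myc fell, from a mean of 9.76 to 3.92 CPM (log2 fold change -1.42 ± 0.31, adjusted p = 0.00227).

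Several other measures moved with Grb10 pA in the same libraries. The 12 pluripotency markers summed to 4776 to 4937 CPM in ESCs of E14 WT and 5180 to 5388 in Grb10 pA, with Zfp42 and Klf2 lower. The 9 neuron markers summed to 327 to 345 and 209 to 240 CPM in these ESCs, with Tubb3 and Elavl4 lower and Dll1 higher, and to 142 to 155 and 76.0 to 78.8 CPM in NPCs, where Dcx, Neurog1 and Neurog2 were at 0 or 1 count in both groups. The 16 markers of extraembryonic endoderm, of which 2 were higher in ESCs of Grb10 pA, summed to 201 to 236 and 240 to 284 CPM, and in NPCs to 1616 to 2124 and 1451 to 1758. The part of these cells, of the low Ctcf RNA level and of chromosome 8 in the result was not tested. Ankrd37, the gene of the set that lies on chromosome 8, was not among the 15 genes.

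The Podxl pA line carries the same cassette in another gene. In ESCs, 0 of the 36 genes changed in either direction with edgeR (0.0829% of all genes tested were higher and 0.256% lower) or with DESeq2. In NPCs, 0 of the 34 genes other than Txnip and Aldoc changed with edgeR (0.384% and 0.166%) or with DESeq2. The median log2 fold change was -0.15 in ESCs, with a range from -0.43 for Pfkfb3 to 0.12 for Car9. Txnip was at 87.5, 89.5 and 114 CPM in ESCs of Podxl pA, which overlaps the E14 WT values, and the 95% interval of its log2 fold change was from -0.35 to 0.01. The values of Txnip and Aldoc in NPCs of Podxl pA are given above without a test, because they are set against the NPC libraries of E14 WT that led to the choice. P4ha1 in NPCs of Podxl pA was at 153, 157 and 149.5 CPM (log2 fold change 0.44 ± 0.09, adjusted p = 0.0169), and Pfkp, the platelet phosphofructokinase, had log2 fold change 0.44 ± 0.09, adjusted p = 0.0137. Both were under the cutoff on size, and P4ha1 was called when the third NPC library of E14 WT was left out. In the same libraries, 7 of 13 endoderm markers tested were higher, and the list summed to 2702 to 2894 CPM against 1616 to 2124 in E14 WT, with no marker at 0 in Podxl pA. Their part in the P4ha1 value was not tested.

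In each tested line, genes of the set moved in both directions with differentiation. Between ESCs and NPCs of E14 WT, leaving out Txnip and Aldoc, 6 of 34 genes rose and 7 fell, against 16.5% and 16.3% of all genes tested. In Podxl pA 7 of 36 rose and 6 fell (17.1% and 14.7%). In the WT rescue line 9 rose and 9 fell (22.0% and 19.9%), and in the ΔZF1 rescue line 12 rose and 9 fell (20.4% and 16.9%). In Grb10 pA, whose NPC libraries led to the choice, 8 were past the cutoffs upwards and 6 downwards (17.2% and 17.4%), with no test. The 4 tested lines share no libraries. In E14 WT, Podxl pA and WT rescue, the shares of the set were near those of all genes tested.

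The direction was the same in all tested lines for 5 genes. Pfkp and Hk2, leaving out Txnip and Aldoc, fell in all 4 tested lines, and Pfkm, Eno3 and Ddit4 rose in all 4. The call on Pfkm was lost in WT rescue without either ESC library or the second NPC library of that line and with only its 4 libraries fitted, and in ΔZF1 rescue without any 1 library of its own. That on Hk2 was lost in Podxl pA without the first ESC library. Pfkp went from 382, 372 and 335 CPM in ESCs of E14 WT to 95.2, 82.5 and 93.0 in NPCs (log2 fold change -2.02 ± 0.09, adjusted p = 3.59e-16), and from 223 and 242 to 35.0 and 54.3 in the WT rescue line (log2 fold change -2.39 ± 0.18, adjusted p = 4.65e-06). Its ratio of counts to Pfkl, the liver isozyme, fell from 1.63 ± 0.0223 (SD, n = 3) to 0.357 ± 0.0190 in E14 WT. Eno3 went from 6.76, 5.31 and 6.21 CPM to 28.5, 23.4 and 30.7 in E14 WT (log2 fold change 2.16 ± 0.21, adjusted p = 2.47e-09) and from 14.1 and 12.7 to 43.6 and 63.9 in the WT rescue line (log2 fold change 2.01 ± 0.21, adjusted p = 3.56e-05). Hk2, the inducible hexokinase, had log2 fold changes from -1.23 in WT rescue to -0.59 in Podxl pA. Pfkm, the muscle isozyme, had values from 0.56 in the WT rescue line to 0.93 in E14 WT, and Ddit4 from 0.69 in E14 WT to 1.78 in WT rescue. Aldoc fell in both rescue lines and in Podxl pA (-1.13, -0.97 and -1.75), and without a test its value in E14 WT was -2.34.

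Other genes moved in the rescue lines and not, past the cutoffs, in E14 WT or Podxl pA. These were Ldha, Slc2a3, Pdk1 and Ankrd37, and since the 2 sets were fitted apart the difference between them was not tested. Pdk1, which phosphorylates and inhibits pyruvate dehydrogenase, went from 125 and 112 CPM to 28.2 and 26.0 in the WT rescue line (log2 fold change -2.12 ± 0.11, adjusted p = 7.61e-07), and was at 249.9, 251 and 236 and 315, 255 and 264 in E14 WT (log2 fold change 0.17 ± 0.09, adjusted p = 0.137). Ldha, the lactate-forming subunit, went from 563 and 558 CPM to 178 and 234 (log2 fold change -1.44 ± 0.13, adjusted p = 1.42e-05), against 1204, 1154 and 1127 and 1044, 907 and 962 in E14 WT (log2 fold change -0.26 ± 0.08, adjusted p = 0.0137). Slc2a1, the glucose transporter GLUT1, was called in both rescue lines and also in Podxl pA (0.61). In WT rescue it rose from 382 and 340.1 CPM to 1411 and 1616 (log2 fold change 2.07 ± 0.11, adjusted p = 8.48e-07), and in E14 WT it was at 1253, 1088 and 1036 and 1650.0, 1366 and 1488 (log2 fold change 0.41 ± 0.08, adjusted p = 0.000138). Slc2a3 rose in both rescue lines, by 1.55 in WT rescue and 1.39 in ΔZF1 rescue on the log2 scale, and had 0.03 in E14 WT and 0.24 in Podxl pA. Ankrd37, a small ankyrin-repeat gene of the hypoxia response, fell in both rescue lines (-0.87 in WT rescue and -0.88 in ΔZF1 rescue). Its call in WT rescue was lost with DESeq2, without the low-count filter, in a fit of that line alone and without its first ESC library, and in ΔZF1 rescue without the second ESC library or either NPC library of that line. In WT rescue alone, Pgam1 (-0.67) and Pdk3 (-0.52) fell and Eno2 rose (1.26), where Pdk3 was lost with no filter, with only the libraries compared and without the first ESC or the second NPC library, and Eno2 without the second ESC library. Aldoa fell in E14 WT (-0.61) and in both rescue lines (-0.66 in WT rescue and -0.75 in ΔZF1 rescue), and its call in WT rescue was lost without the first NPC library. Tpi1, Eno1, Pkm, Ero1l, Vegfa and Arrdc4 passed the cutoffs in none of the 10 tested comparisons with all libraries fitted.

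Hk1, Egln3 and P4ha1 passed the cutoffs, each in 1 direction, in E14 WT, Podxl pA and ΔZF1 rescue and not in WT rescue, where their log2 fold changes were -0.11, -0.13 and -0.16. In ΔZF1 rescue they were -0.82, 0.62 and 2.13, and the call on Egln3 was lost without any 1 ΔZF1 rescue library. Hk1, the constitutive hexokinase, fell from 164, 137 and 140.2 CPM to 41.8, 44.2 and 44.5 (log2 fold change -1.75 ± 0.09, adjusted p = 1.08e-14), and was at 69.7 and 76.6 and 56.0 and 80.4 in the WT rescue line. Egln3 rose from 41.9, 42.5 and 32.6 CPM to 90.0, 74.9 and 105 in E14 WT (log2 fold change 1.16 ± 0.12, adjusted p = 7.5e-09) and had 1.87 in Podxl pA, and the difference between these lines was not tested. Ldhb, Pfkfb3 and Pfkfb4 were called in opposite directions in some lines. Ldhb fell in E14 WT (log2 fold change -1.19 ± 0.12, adjusted p = 5.52e-09), in Podxl pA (-1.07) and in ΔZF1 rescue (-0.54), and rose in WT rescue alone (log2 fold change 0.53 ± 0.15, adjusted p = 0.0158). The WT rescue call was lost without the second ESC or the second NPC library of that line and with only its 4 libraries fitted, and the ΔZF1 rescue call without any 1 library of its own. Pfkfb3, which makes the activator of phosphofructokinase, fell in E14 WT (-0.83) and rose in the WT and ΔZF1 rescue lines (1.39 and 0.83), and Pfkfb4 fell in Podxl pA (-0.79) and rose in WT rescue (1.20). The fall of Pfkfb4 in Podxl pA was lost with DESeq2, with either other filter on low counts, with the replicate block and without any of several single libraries. Txnip rose in Podxl pA (log2 fold change 1.57 ± 0.09, adjusted p = 4.79e-14) and in ΔZF1 rescue (log2 fold change 0.64 ± 0.09, adjusted p = 0.000381), and was at 105 and 108 CPM in ESCs and 109.6 and 112 in NPCs of WT rescue. The 10 surface ectoderm markers summed to 242 to 324 CPM in ESCs and to 3260 to 4671 in NPCs of WT rescue. In E14 WT they summed to 203 to 235 CPM in ESCs and to 367 to 420 in NPCs. The part of these cells in the values was not tested.

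**Figure D3:**
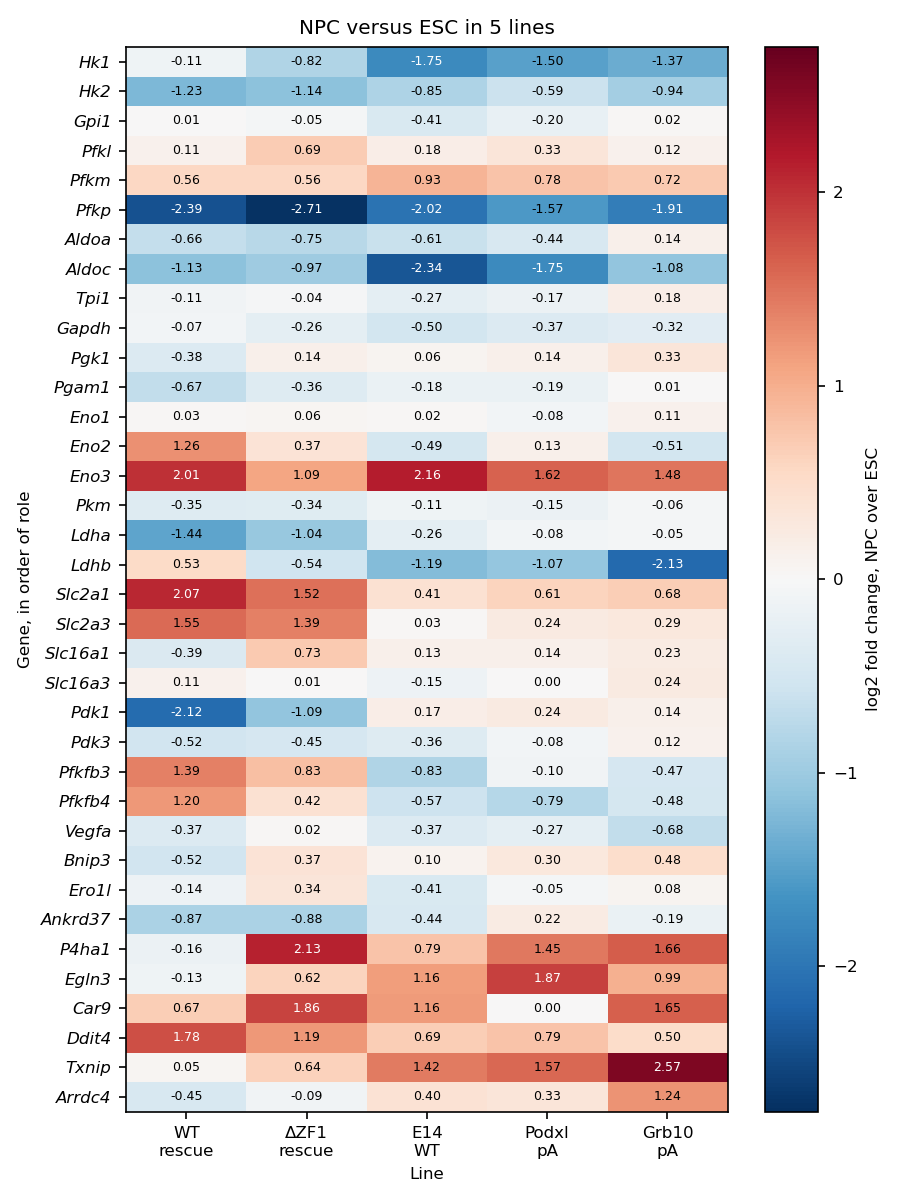
Log2 fold changes of NPCs over ESCs (colour and printed value) of the 36 genes (rows, in order of role) in 5 lines (columns). Pfkp was lower and Eno3 higher in NPCs of every line, while Ldha, Pdk1 and Slc2a1 differ in size between the rescue lines on the left and the other lines; values in Grb10 pA are described only.

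Among pathway genes, Hkdc1, a hexokinase-related gene, rose in all 4 tested lines, from 0, 1 and 0 counts in ESC libraries of E14 WT to 7, 19 and 9 in NPC libraries, too few for a firm fold change. Fbp2, a fructose bisphosphatase of gluconeogenesis, also rose in all 4, from 4, 4 and 0 counts to 34, 97 and 26 in E14 WT. Mpc1, a subunit of the mitochondrial pyruvate carrier, fell in all 4, with -1.30 in E14 WT and -1.13 in WT rescue. Myc rose in all 4 (2.76 in E14 WT and 1.81 in WT rescue), and Mlxipl, which encodes ChREBP, fell in E14 WT (-1.04) and in both rescue lines and did not pass in Podxl pA.

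The rescue lines compare CTCF that lacks zinc finger 1 with wild-type CTCF, and a change cannot be told apart from a difference between the clones. In ESCs, 0 of the 36 genes passed the cutoffs with edgeR or with DESeq2 (1.29% of all genes tested were higher in ΔZF1 rescue and 2.33% lower). These shares moved with single libraries: the 214 higher and 387 lower genes became 3 and 5 without the second ESC library of WT rescue, and 661 and 1089 without its first NPC library. The largest values were those of Aldoc, at 10.9 and 12.3 CPM in WT rescue and 7.20 and 6.48 in ΔZF1 rescue (log2 fold change -0.77 ± 0.19, adjusted p = 0.0543), Bnip3 (log2 fold change -0.62 ± 0.23, adjusted p = 0.174) and Slc16a3 (log2 fold change -0.53 ± 0.16, adjusted p = 0.101). These 3 were called, as lower, when only the 4 ESC libraries were fitted and without either NPC library of WT rescue, and Aldoc and Slc16a3 lie on chromosome 11, whose median was -0.46. Txnip was at 105 and 108 CPM in WT rescue and 84.8 and 88.1 in ΔZF1 rescue, with a 95% interval of the log2 fold change from -0.49 to -0.11.

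In NPCs, 3 of the 36 genes were higher in ΔZF1 rescue and 7 lower, where 7.19% of all 16641 genes tested were higher and 10.5% lower. P4ha1 rose most, from 28.5 and 25.2 CPM in the 2 WT rescue libraries to 121 and 126 in ΔZF1 rescue, which is 4.59-fold (log2 fold change 2.20 ± 0.11, adjusted p = 8.67e-06). Slc16a1, the monocarboxylate transporter MCT1, rose from 223 and 159 CPM to 432 and 424 (log2 fold change 1.16 ± 0.15, adjusted p = 0.000849), and Pdk1 from 28.2 and 26.0 to 53.6 and 51.7 (log2 fold change 0.95 ± 0.11, adjusted p = 0.000548). In all 3 genes, the ΔZF1 rescue libraries lay close together and the groups did not overlap. Ldhb fell from 70.3 and 94.9 CPM to 33.2 and 36.6 (log2 fold change -1.24 ± 0.15, adjusted p = 0.00071), and Pfkfb4 from 9.11 and 10.2 to 4.30 and 4.38 (log2 fold change -1.15 ± 0.26, adjusted p = 0.0137). Eno3 fell from 43.6 and 63.9 CPM to 28.9 and 26.4 (log2 fold change -0.95 ± 0.19, adjusted p = 0.00657). It lies on chromosome 11, and with the median of that chromosome taken into account its value was -0.38 (adjusted p = 0.176 with edgeR). The other 4 that fell were Hk1 (-0.67), Slc2a1 (-0.62), the lactate exporter Slc16a3 (-0.63), also on chromosome 11, and Pfkfb3 (-0.61). Slc16a3 also lost its call with the chromosome medians taken into account, which left 8 of the 10. The median over the 36 genes was 0.14, against -0.0026 over all genes tested. Txnip was at 109.6 and 112 CPM and 135 and 136 (log2 fold change 0.29 ± 0.09, adjusted p = 0.0549) and did not pass.

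The count of 10 moved with single libraries. It was 19 without the first and 12 without the second NPC library of WT rescue, 5 without the first and 4 without the second of ΔZF1 rescue, and 6 when only the 4 NPC libraries were fitted. Slc16a1, Pdk1, P4ha1 and Ldhb were among those called in each of these fits. The WT rescue NPC libraries lay apart in several genes of the set, for example Eno1 at 411 and 649 CPM and Pfkl at 98.3 and 155, where those of ΔZF1 rescue were at 717 and 675 and 179 and 182.

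**Figure D4:**
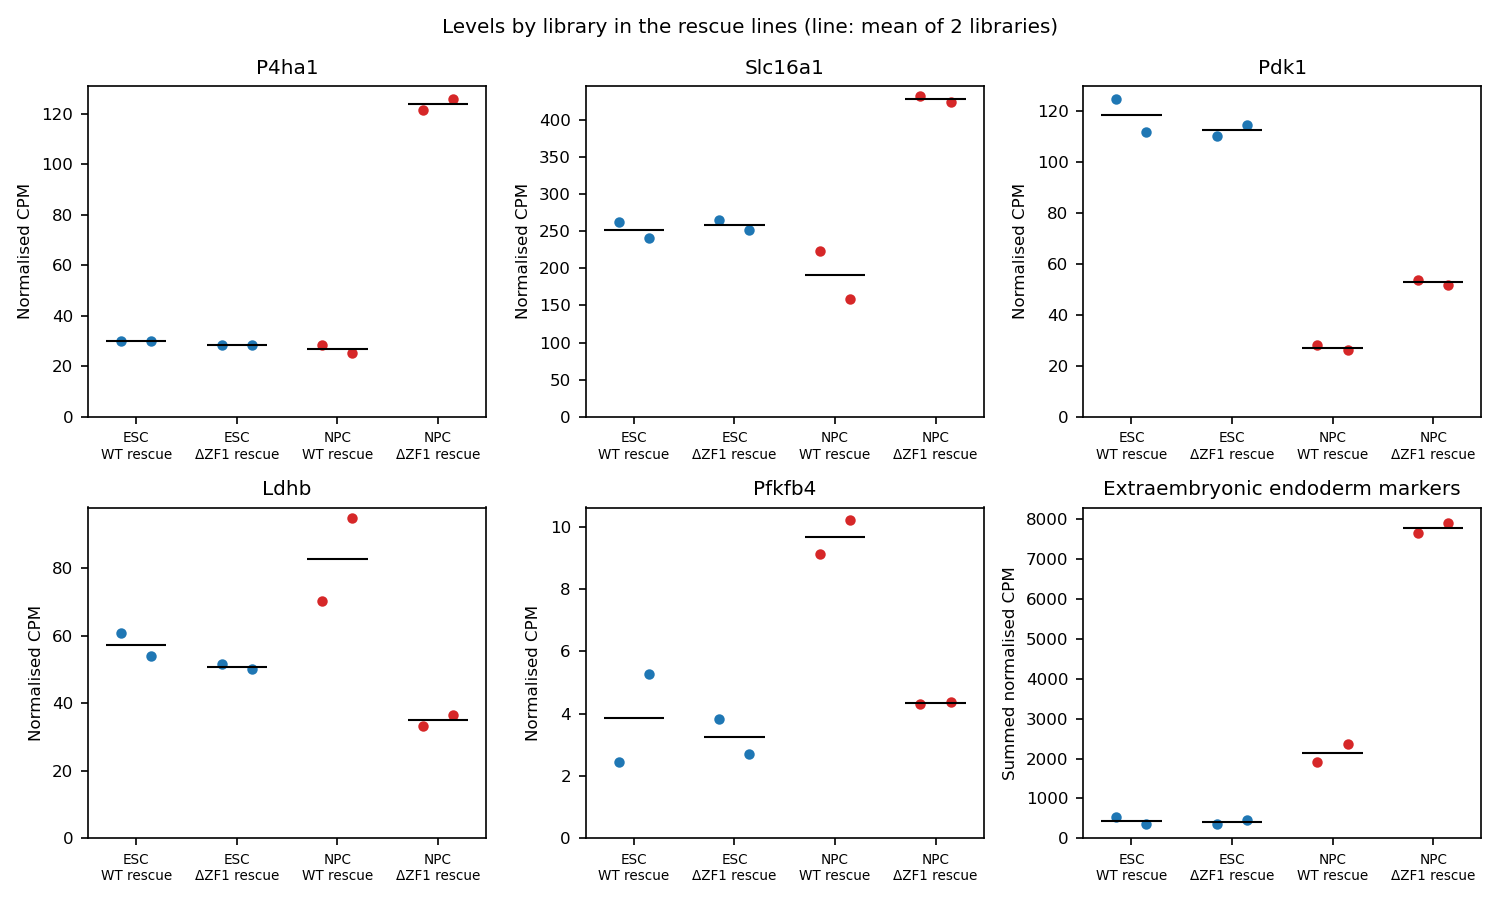
Normalised CPM (vertical axes, from 0) of 5 genes and the summed CPM of 16 extraembryonic endoderm markers in each library of the rescue lines, with ESCs in blue, NPCs in red and the mean of 2 libraries as a line. P4ha1 and the endoderm markers are both highest in NPCs of ΔZF1 rescue, and Ldhb is lowest there.

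The effect of ΔZF1, here the change from WT rescue to ΔZF1 rescue, in NPCs minus that in ESCs was tested in the same fit. It was past the cutoffs in 4 of the 36 genes, 3 upwards and 1 downwards (1.59% and 1.11% of all genes tested). These were P4ha1 (log2 fold change 2.29 ± 0.16, adjusted p = 0.000226), Slc16a1 (log2 fold change 1.12 ± 0.21, adjusted p = 0.022), Pdk1 (log2 fold change 1.03 ± 0.15, adjusted p = 0.0103) and Ldhb (log2 fold change -1.07 ± 0.21, adjusted p = 0.0296). In ESCs, P4ha1 was at 30.1 and 30.1 CPM in WT rescue and 28.3 and 28.4 in ΔZF1 rescue, and Ldhb at 60.7 and 54.0 and 51.5 and 50.2. Without any 1 library of the ESCs or of the ΔZF1 rescue NPCs, P4ha1 alone passed, and without the first or the second NPC library of WT rescue 16 and 11 genes did.

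**Figure D5:**
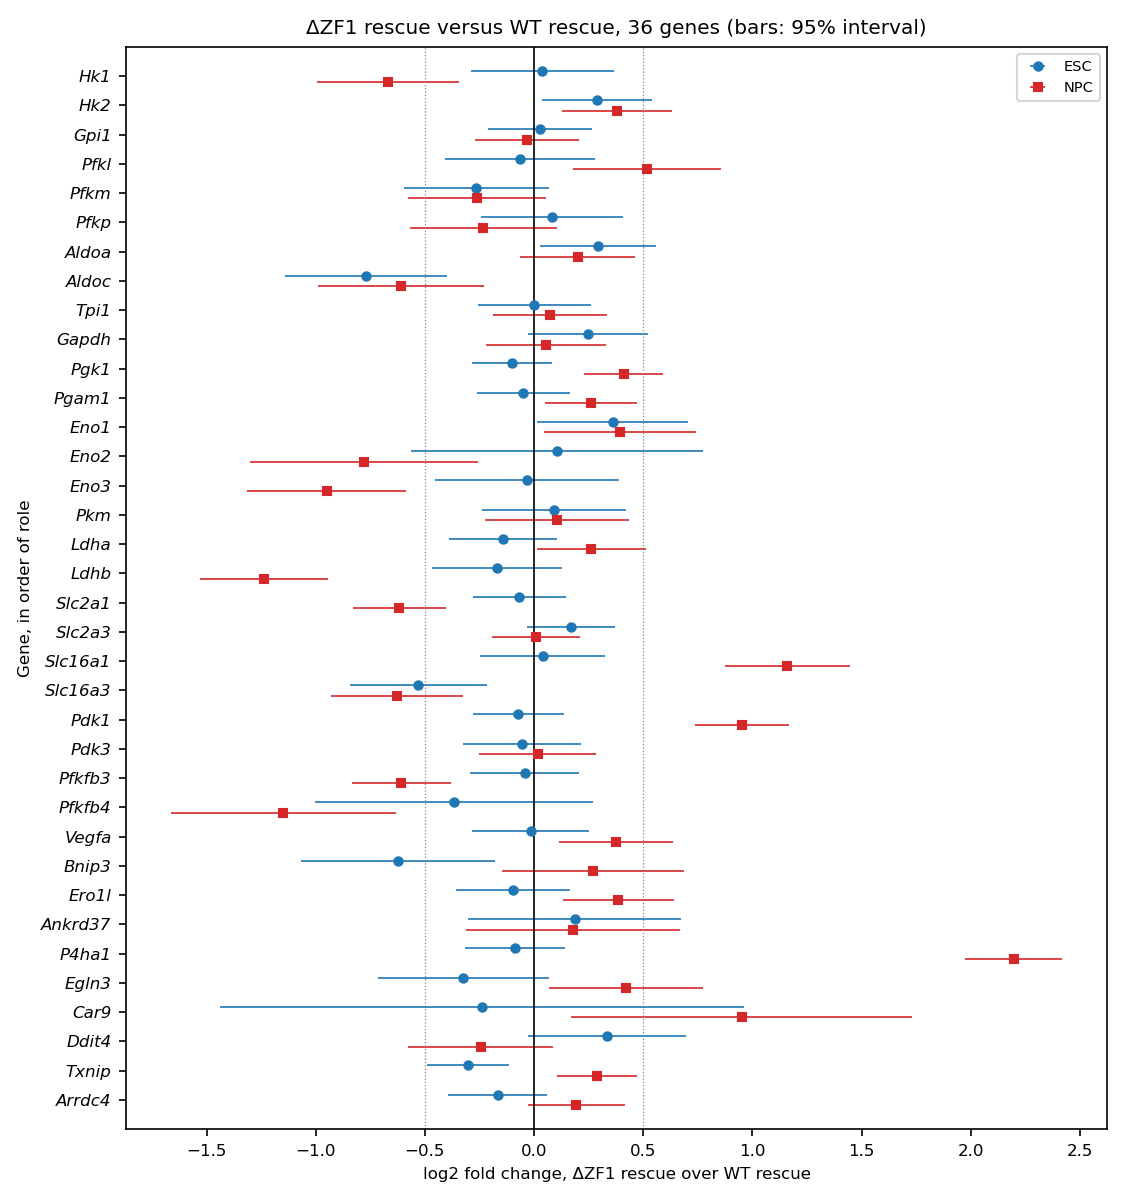
Log2 fold changes (horizontal axis) with 95% intervals of the 36 genes, in order of role, in ΔZF1 rescue over WT rescue, with ESCs as blue circles and NPCs as red squares. Dotted lines mark 0.5 in either direction; P4ha1 lies at 2.20 in NPCs and -0.09 in ESCs.

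Other genes of the same pathways also changed in NPCs of ΔZF1 rescue. Of 15 further hypoxia targets, 4 rose and 2 fell. Plod2, a lysyl hydroxylase of collagen, rose from a mean of 33.3 to 103 CPM (log2 fold change 1.61 ± 0.17, adjusted p = 0.000376), and Loxl2, a lysyl oxidase that cross-links collagen, rose (1.01), whereas P4ha2 (-0.58) and Ndrg1 (-0.67) fell. Epas1, which encodes HIF-2α, was the 1 of 9 HIF genes that rose, from 18.2 to 69.1 CPM (log2 fold change 1.92 ± 0.13, adjusted p = 3.32e-05). Hkdc1 (3.32), Fbp1 (1.23) and Fbp2 (2.13) also rose. Mlx, the partner of MondoA, was lower in ΔZF1 rescue both in ESCs (log2 fold change -0.62 ± 0.11, adjusted p = 0.0215) and in NPCs (log2 fold change -0.51 ± 0.11, adjusted p = 0.011), and it lies on chromosome 11. Markers of extraembryonic endoderm moved with these genes: 14 of 15 tested were higher and 0 lower, their sum was 1924 to 2355 CPM in WT rescue and 7655 to 7922 in ΔZF1 rescue, and Apoa1 was at 0 in both WT rescue libraries. Col4a1, Col4a2 and Lama1, which encode basement membrane proteins, are on that list. Surface ectoderm markers moved the other way, with 7 of 10 lower, 1 higher (Tfap2a) and sums of 3260 to 4671 and 1371 to 1437 CPM. The part of these cells in the result was not tested.

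Levels between genes can be compared per kilobase of exon. In ESCs of E14 WT, Gapdh and Aldoa were highest (833 CPM per kb each), followed by Pkm (520) and Ldha (351), and Car9 was lowest (0.655). In NPCs of Grb10 pA the order was Aldoa (1196), Gapdh (811), Pkm (690) and Slc2a1 (687), and in NPCs of WT rescue Slc2a3 led (720.1) ahead of Slc2a1 (432) and Gapdh (387). Car9, a carbonic anhydrase with a HIF-bound promoter, stayed under 5 CPM in every library, with 2, 8 and 7 counts per library in ESCs of E14 WT. Its changes are measured on few counts. Gapdh, Aldoa, Ldha, Pgk1, Eno1, Pgam1, Tpi1 and Pkm have processed pseudogenes, and how the counting divided shared reads cannot be seen in the tables.

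Ratios of counts within a library show the shift between isozymes without library size. Ldhb to Ldha was 0.0425 ± 0.00329 (SD, n = 3) in ESCs of E14 WT and 0.0925 ± 0.00323 in ESCs of Grb10 pA, whose ranges did not overlap. In NPCs the ratio was 0.0222 ± 0.00197 in E14 WT and 0.0221 ± 0.00243 in Grb10 pA, with overlapping ranges. In the rescue lines it was 0.400 ± 0.00729 (SD, n = 2) in NPCs of WT rescue and 0.141 ± 0.00828 in NPCs of ΔZF1 rescue, against 0.102 and 0.100 in ESCs. Txnip to Arrdc4 was 2.60 ± 0.235 in ESCs and 5.29 ± 0.0560 in NPCs of E14 WT, and 4.03 ± 0.821 and 10.0 ± 0.339 in Grb10 pA (SD, n = 3). Between 3 and 3 libraries an exact permutation test cannot give a two-sided p below 0.10, and none was run on these ratios.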

How the data were processed

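RNA was sequenced from 26 libraries (ribosomal RNA removed, random hexamers, paired reads), grouped by the labels. Per the study's methods, the authors aligned reads to mm10 with STAR and counted them per gene with featureCounts. The deposited counts are labelled as unstranded, so strand did not tell the reads of antisense partners apart. The deposited values are raw counts per gene symbol in 2 tables (8 rescue libraries, 18 libraries of E14 and pA lines). In the second, 3 columns matched no sample and were not used. The study calls its replicates biological. The labels give only their numbers, and nothing states whether they are separate cultures, so p-values measure the spread between these libraries.

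Each table was fitted separately with edgeR 4.0.16 in R 4.3.3: TMM, filterByExpr, 1 mean per group over all its groups, quasi-likelihood F test, Benjamini-Hochberg adjustment over all genes tested. Genes were called at the study's cutoffs (adjusted p no higher than 0.05, and 0.5 or more in size on the log2 scale). SEs are the log2 fold change over the root of F. The 95% intervals are 1.96 SE, which makes no allowance for the few libraries, so they are narrower than the F test implies. Alternatives were DESeq2 1.42.0, RLE, other filters, only the groups compared, chromosome medians in the offsets, the replicate block and leaving out each library. The fit was tested on simulated data.

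The members and lists were chosen with earlier results of these data known. Library values were given for Txnip and Aldoc and for the 3 largest called rises and falls per comparison with at least 50 normalised counts and groups that did not overlap. Other genes with library values were chosen after their values were seen. Positions are from GENCODE M21 (53197 of 55291 symbols, 96.2%, matched 1 gene), promoter windows from RefSeq (GRCm38.p6), where motifs were searched on both strands. Depth limits low genes, and no library pair differed by as little as sampling noise (lowest chi-square per gene 1.69). The NPC libraries of WT rescue lay farthest apart, at 63.1, where those of ΔZF1 rescue had 2.92.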

Additional observations from a re-analysis of the deposited data

Results flagged for a closer look

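The effect of ΔZF1 differed between NPCs and ESCs by the test of that difference (edgeR) in 4 genes. The difference, NPC minus ESC on the log2 scale, was 2.29 for P4ha1, 1.12 for Slc16a1, 1.03 for Pdk1 and -1.07 for Ldhb. P4ha1 was also marked in the Podxl pA line, because its ESC libraries moved down (-0.22) and its NPC libraries up (0.44) against E14 WT. That difference, 0.66, was not tested.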

How the results depend on the processing

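The counts of changed members (higher and lower together) moved as follows. In ESCs of ΔZF1 rescue, 0 genes became 2 with no filter on low counts (Aldoc and Slc16a3) and 3 with only the groups compared or without either NPC library of WT rescue. In NPCs of ΔZF1 rescue, 10 became 6 with only the groups compared, 8 with chromosome medians in the offsets and 4 to 19 when 1 library was left out. For the difference of the ΔZF1 effect, 4 became 7 with no filter and 1 to 16 without 1 library. In NPCs of Podxl pA, 0 stayed 0 or became 1 (P4ha1) without 1 library. In ESCs of Grb10 pA, 15 became 12 to 15 under other settings and 10 to 16 without 1 library. Between NPCs and ESCs, 18 in WT rescue became 14 to 19, 21 in ΔZF1 rescue 15 to 21, 13 in E14 WT 11 to 14 and 13 in Podxl pA 11 to 13. The cause of these shifts was not tested. The difference of the ΔZF1 effect was not run with only the groups compared, since it uses all 4.

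No direction reversed. Slc16a1, Pdk1 and Ldhb lost the call on the difference without any 1 ESC or ΔZF1 rescue NPC library. Replicate numbers did not pair the libraries: deviations correlated between -0.209 and 0.154 in the E14 and pA lines and between -0.137 and 0.132 in the rescue lines. With the replicate block, 10 genes were called in NPCs of ΔZF1 rescue, 4 for the difference, 14 in ESCs of Grb10 pA, 19 between NPCs and ESCs of WT rescue, 21 in ΔZF1 rescue, 13 in E14 WT and 12 in Podxl pA, and 0 in the other 3 comparisons.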
